A study of Mus musculus with 12 samples.

Results

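The genes of the integrin chains, the laminin chains and the nidogens were compared between the descending aortas of old and adult mice. Members were the gene probes of the array whose gene name is Itga or Itgb with a number, Itgae, Itgal, Itgam, Itgav or Itgax, Lama, Lamb or Lamc with a number, Nid1 or Nid2. They came to 50 of 55681 gene probes and stood for 36 genes: 16 integrin alpha chains, 8 integrin beta chains, 10 laminin chains and 2 nidogens. The laminin beta 1 gene, Lamb1-1 on the array, fell outside these names. It was above background on 12 arrays and differed by -0.05 between the ages (95% interval -0.51 to 0.41). Total RNA of the aorta came from 6 male C57BL/6 mice aged 20 months and 6 aged 6 months, all untreated and fed standard chow, with 1 array per mouse. Vessels had been flushed through the left ventricle and cleared of the fat and connective tissue around them. Each sample still held the whole wall with its endothelium, smooth muscle and adventitia. Markers of fat cells were nevertheless above background on all arrays, as given below. RNA was labelled with the dye Cy3 and hybridised to Agilent 1-colour arrays. Signals are given as log2 values relative to the 75th percentile of the same array, so a negative value lies below that percentile, and a difference of 1 is a doubling. Levels of different genes cannot be set against each other on this scale, because each probe binds with its own strength.

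Integrins are cell surface receptors made of 1 alpha and 1 beta chain, and they tie the cytoskeleton to the matrix or to other cells. Laminins are trimers of an alpha, a beta and a gamma chain that form a sheet in basement membranes, and nidogens link that sheet to the type IV collagen network. In the aorta every smooth muscle cell is wrapped in a basement membrane, the endothelium rests on another, and leukocytes carry integrins of their own.

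At an adjusted p under 0.05 in limma's moderated test (Benjamini-Hochberg over all genes), 0 of the 31 members tested passed, against 53 of 16841 genes tested (0.315%; 44 or 0.261% higher and 9 or 0.0534% lower at 20 months). At an unadjusted p under 0.05, 4 of 31 members stood out (Itga5, Lamb3, Lama2 and Lamb2), beside 7.99% of all genes. In 0 of 31 members did the values of the ages separate without overlap, beside 0.813% of all genes. A difference of at least 1.5-fold was measured for 2 members, Itga5 and Lamb3, beside 1.86% of all genes. For 26 of 31 members the 95% interval of the difference lay wholly within 1.5-fold in either direction, as it did for 81.2% of all genes. The precision of these data therefore leaves room for larger differences in the other 5 members. The 26 include Itgam, whose level is uncertain at the probe used, and Lamb3 was at -0.23 with another background correction, as given below. Fewer cells of a type and less RNA per cell cannot be told apart in such whole tissue.

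The median difference over the 20 integrin genes tested was 0.012 on the log2 scale (20 minus 6 months), with 11 positive and 9 negative values. Over the 11 laminin and nidogen genes it was 0.058, with 8 positive and 3 negative. The median over all genes was -0.020, with 7389 positive and 9452 negative. Both member medians were below the spread of a single mouse's median within an age, which was 0.125 for the integrins and 0.092 for the laminins and nidogens. That spread is wider than the error of a difference between groups of 6 mice, and whether the medians differ from 0 was not tested.

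**Figure D1:**
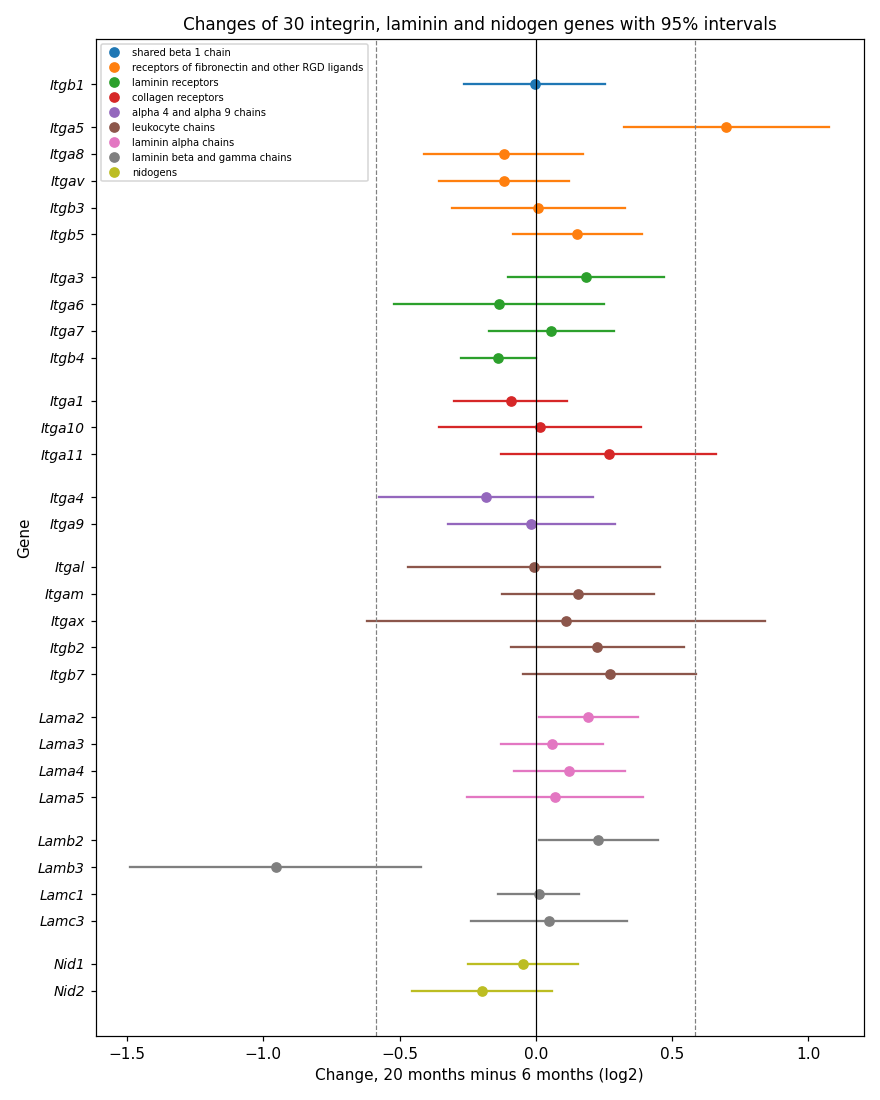
Difference between 20 and 6 months (log2, horizontal axis) for 30 of the 31 genes tested, as a point with its 95% interval, coloured by role. Dashed lines mark 1.5-fold in either direction. Itga5 lies farthest to the right at 0.70 and Lamb3 farthest to the left at -0.96, and most of the other intervals include 0.

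5 members were not tested, because their probes were above background on fewer than 6 of the 12 arrays. Itga2, a collagen receptor chain known from platelets and epithelium, was above background on 1 array, of a 20-month mouse. Itgae of intraepithelial lymphocytes, the beta chains Itgb6 and Itgb8 that pair with alpha V, and Lama1, the laminin alpha chain of the early embryo, were above background on 0 of 12 arrays. No level can be given for these genes in the aorta here. Every other member was above background on at least 11 arrays, except Lamb3 on 7.

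The probe sequences of the genes that the results turn on are shown 5′ to 3′ as the array holds them, with positions on the mouse build mm9 as the files give them. The first, for Itgb1, lies on chr8:131250081-131255976, plus strand, a span longer than the probe's 60 bases. The capitals mark the codons of its pair of NPxY motifs, the sites in the beta 1 tail where talin and kindlin bind. NPxY codons were searched on the printed strand in any frame, and 0.218% of all gene probes and 1 of the 50 member probes hold them.
Itgb1: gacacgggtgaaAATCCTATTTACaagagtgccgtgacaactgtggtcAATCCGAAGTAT
The first 30 bases of the probes for Itga5 (chr15:103175022-103175081, minus strand) and Lamb3 (chr1:195170009-195170068, plus strand) follow, as these members had the smallest p-values and each has a single probe.
Itga5: gggttgatctggagcccagtctcggattct
Lamb3: tgtatgaacacaaaacccaataaaaatctt
Itgam had 3 probes that differed in behaviour, and the first 30 bases of each show how they differ in sequence. The capitals mark an unbroken run of the bases CA, which only the first of them holds. They lie on chr7:135261755-135261814, chr7:135260275-135260334 and chr7:135212140-135212199, all on the plus strand.
Itgam, probe A_55_P1977934: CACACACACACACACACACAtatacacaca
Itgam, probe A_55_P1977929: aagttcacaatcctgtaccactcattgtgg
Itgam, probe A_55_P1977926: tgttaaccagacaggtgccctctaccagtg

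Among the receptors of fibronectin and other ligands with an RGD motif, Itga5 had the smallest p of all members. It encodes the alpha 5 chain, which pairs with beta 1 as the classical fibronectin receptor. Its values were 1.30, 1.88, 1.74, 2.21, 1.89 and 2.17 in the mice aged 20 months, against 0.86, 1.59, 1.08, 1.41, 1.30 and 0.76 in those aged 6 months. 5 of the 6 old mice lay above every adult mouse, and the remaining old mouse, replicate 1, lay within the adult range. The means were 1.86 ± 0.33 at 20 months and 1.17 ± 0.32 at 6 months (SD, n = 6 each), a difference of 0.70 with an SE of 0.17, or 1.62-fold (limma, adjusted p = 0.173). The difference was larger than the SD within either age but did not pass the test over all genes. On the 3 slides, each with 2 mice of each age, it was 0.25, 0.84 and 1.004. With weights for array quality it reached 0.78 and passed (adjusted p = 0.0398), a setting under which 122 genes or 0.724% passed. Under the other settings that used all slides its adjusted p ran up to 0.375.

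The other chains of this class stayed near 0. Itga8, an RGD receptor chain abundant in vascular smooth muscle, had a lowest, median and highest value of 6.92, 7.42 and 7.46 at 20 months, against 7.16, 7.43 and 7.88 at 6 months. It differed by -0.12 with an SE of 0.14. When the 3 arrays with strong heart muscle or T and NK cell signals, described below, were left out, that difference was 0.02. Its direction is therefore not settled. Itgav, the alpha V chain shared by several receptors, differed by -0.12 with an SE of 0.11. Its partners Itgb3 and Itgb5 differed by 0.01 with an SE of 0.15 and by 0.15 with an SE of 0.11. The adjusted p of these 4 genes in limma lay between 0.759 and 0.993, and the ages overlapped in each.

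Itgb1 encodes the beta 1 chain that pairs with most alpha chains of the vessel wall. Its lowest, median and highest values were 4.04, 4.23 and 4.31 at 20 months, against 3.78, 4.32 and 4.48 at 6 months. The means were 4.21 ± 0.09 and 4.21 ± 0.29 (SD, n = 6 each), and the difference of -0.004 had a 95% interval of -0.26 to 0.26. The adult mice enclosed all the old ones, with 3 above and 2 below the whole old range. A second Itgb1 probe gave -0.21. The SD was larger at 6 months for 17 of the 20 integrin genes and for 23 of all 31 members (74.2%), beside 65.9% of all genes.

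The receptors for laminin differed little. Itga3 and Itga6, alpha chains that pair with beta 1 and, for alpha 6, also beta 4, differed by 0.18 with an SE of 0.13 and by -0.14 with an SE of 0.18. Itgb4, the beta chain of hemidesmosomes, had values of 0.63, 0.73, 0.88, 0.75, 0.66 and 0.82 at 20 months, against 0.94, 0.93, 0.85, 0.79, 0.88 and 0.89 at 6 months. 4 old mice lay below every adult mouse, and 4 adult mice above every old one. The difference was -0.14 with an SE of 0.06 (limma, adjusted p = 0.635), and it had the same sign on all 3 slides.

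Among the collagen receptors, Itga1, found on smooth muscle, differed by -0.09 with an SE of 0.10, while its other probe gave -0.24 and the mean over both -0.17. Itga11, the collagen I receptor chain of fibroblasts, had a lowest, median and highest value of 1.40, 1.67 and 2.13 at 20 months, against 0.70, 1.48 and 2.01 at 6 months, a difference of 0.27 with an SE of 0.18. Itga4, whose beta 1 pair binds Vcam1 and fibronectin, differed by -0.18 with an SE of 0.18. None of these 3 passed, with adjusted p in limma of 0.822, 0.748 and 0.817. The 6 members tested but not named by the rule for single genes, among them Itga7 and Itga9, lay between -0.02 and 0.11.

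Of the 5 leukocyte chains tested 0 passed, 4 had positive differences and the median was 0.15. That median is Itgam's own value, which depends on the probe as described below, and with Itgam at the mean over its probes 3 of 5 were positive and the median was 0.11. Itgb7, which pairs with alpha 4 on lymphocytes that home to the gut, had values of -0.24, -0.49, -0.48, -0.42, -0.84 and -0.88 at 20 months, against -0.50, -1.03, -0.50, -1.11, -1.11 and -0.73 at 6 months. It differed by 0.27 with an SE of 0.15 (limma, adjusted p = 0.679), with 4 old mice above every adult mouse, and slide 3 alone gave -0.05. Itgb2, the common beta chain of leukocyte integrins, had a lowest, median and highest value of -0.85, -0.74 and -0.26 at 20 months, against -1.34, -0.85 and -0.38 at 6 months, a difference of 0.23 with an SE of 0.15. The list of 12 leukocyte and macrophage markers also had mostly positive differences, with 11 of 12 positive, a median difference of 0.21 and 0 past the adjusted threshold. Its mean deviation from the average array ran from -0.08 to 0.51 at 20 months and from -0.46 to 0.28 at 6 months. All 5 mast cell markers tested, of 7, had positive differences, with a median of 0.63, and 1 of them, the tryptase Tpsb2, passed at 0.60 (limma, adjusted p = 0.0405). Their mean deviation ran from 0.04 to 0.56 at 20 months and from -0.70 to 0.26 at 6 months. T and NK cell markers went the other way without passing, with 2 of 8 tested positive and a median of -0.25. Their mean deviation ran from -0.42 to 0.28 at 20 months and from -0.63 to 1.56 at 6 months. The part of these cells in the values of the leukocyte chains was not tested.

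**Figure D2:**
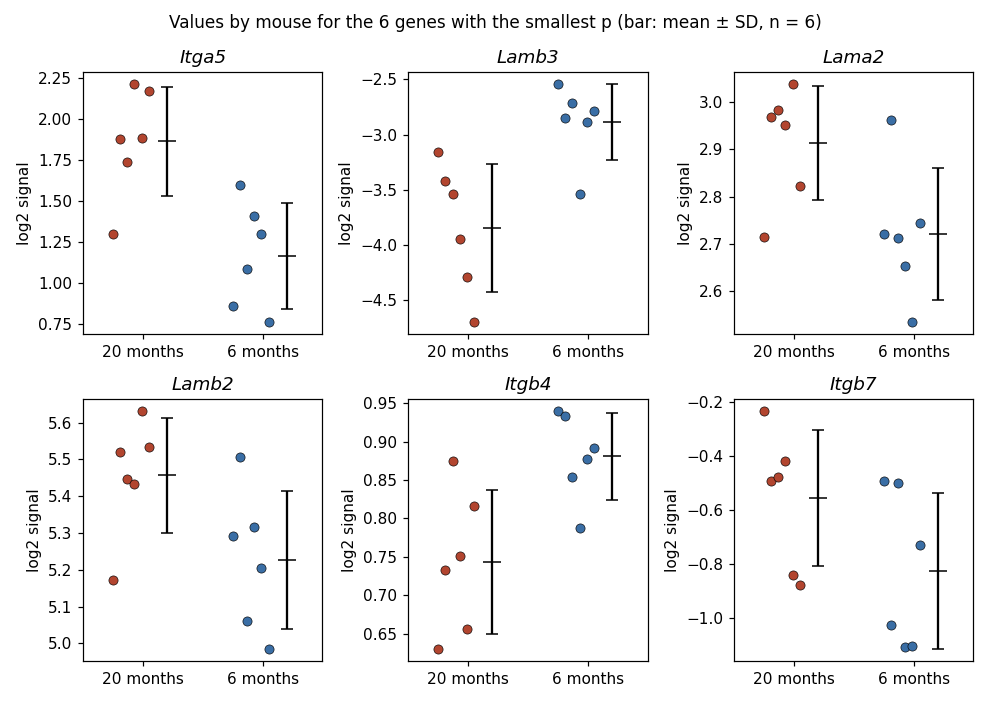
log2 signal (vertical axis) in each mouse for the 6 members with the smallest p, with 20 months on the left and 6 months on the right of each panel. Bars give mean ± SD of 6 mice. The ages overlap in every panel, and 5 of 6 old mice lie above all adult mice for Itga5.

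All 4 laminin alpha chains tested had positive differences. Lama2, the alpha chain of muscle basement membranes, had values of 2.71, 2.97, 2.98, 2.95, 3.04 and 2.82 at 20 months, against 2.72, 2.96, 2.71, 2.65, 2.53 and 2.74 at 6 months. 3 old mice lay above every adult mouse and 3 adult mice below every old one. Its difference of 0.19 with an SE of 0.08 did not pass (limma, adjusted p = 0.589), and both of its probes gave 0.19. On the 3 slides it was 0.00, 0.29 and 0.28.

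Lama4 and Lama5, the alpha chains of endothelial basement membranes, differed by 0.12 with an SE of 0.09 and by 0.07 with an SE of 0.15. Both were negative on slide 1, at -0.15 and -0.27, and positive on slides 2 and 3. Lama3, an epithelial alpha chain, differed by 0.06 with an SE of 0.09, and by -0.04 on slide 3 alone.

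Lamb2, the beta chain of mature vessel and muscle laminins, had values of 5.17, 5.52, 5.45, 5.43, 5.63 and 5.53 at 20 months, against 5.29, 5.51, 5.06, 5.32, 5.21 and 4.98 at 6 months. 3 old mice lay above every adult mouse. The difference was 0.23 with an SE of 0.10 (limma, adjusted p = 0.596), and it was positive on all 3 slides, at 0.06, 0.22 and 0.40. Lamc1, the gamma chain that most vascular laminins share, had a narrow interval, with a difference of 0.01 with a 95% interval of -0.14 to 0.16.

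Lamb3, the beta chain of epithelial laminin, had the most negative difference of the members, measured in part at the limit of detection. Its values were -3.16, -3.42, -3.53, -3.95, -4.29 and -4.70 at 20 months, against -2.54, -2.85, -2.71, -3.54, -2.89 and -2.79 at 6 months. 5 adult mice lay above every old one, and replicate 4 of the adult mice lay among the old. The means were -3.84 ± 0.58 at 20 months and -2.89 ± 0.34 at 6 months (SD, n = 6 each), a difference of -0.96 with an SE of 0.25 (limma, adjusted p = 0.200). The scanner rated it above background in 2 of the 6 old mice and in 5 of the 6 adult mice, so most of the old values are near the limit of measurement and the size of the difference is not exact. It passed the filter on dim probes mainly through the adult mice. With another background correction (normexp) the difference was -0.23, smaller than that of Itga5 at 0.59.

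Mesothelial markers had negative differences like Lamb3. Of 6 mesothelial markers 5 were tested (all but Upk1b). All 5 were lower at 20 months at an unadjusted p under 0.05, a p that 7.99% of all genes had in either direction. The median difference was -1.90, and 0 passed the adjusted threshold in limma. The scanner rated Upk3b above background in 2 old and 6 adult mice, Wt1 in 2 and 5, and Lrrn4 in 3 and 6. For Krt19 and Msln it was 4 and 6. These markers thus passed the filter on dim probes more through the adult mice, and the size of their differences is not exact. Their mean deviation ran from -2.02 to 0.75 at 20 months and from -0.28 to 2.36 at 6 months. In replicates 3 and 1 of the adult mice, where the mean deviation was highest, it was 2.36 and 1.79, with Lamb3 at -2.71 and -2.54. In replicates 4 and 5 of the old mice it was 0.19 and 0.75, with Lamb3 at -3.95 and -4.29. Replicates 1, 2 and 3 of the old mice had -2.02, -1.82 and -1.96, with Lamb3 at -3.16, -3.42 and -3.53. Old replicate 6 had -1.31, with Lamb3 at -4.70. Adult replicates 2, 4, 5 and 6 had -0.28, 0.75, 1.097 and 0.46, with Lamb3 at -2.85, -3.54, -2.89 and -2.79. The epithelial list had 5 of 10 genes tested, 0 of them at an unadjusted p under 0.05, with 4 negative and 1 positive (Dsp, 0.12), a median difference of -0.22 and a mean deviation of -0.14 to -0.002 at 20 months and -0.16 to 0.30 at 6 months. The part of these markers in the Lamb3 result was not tested.

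The nidogens both had negative differences. Nid1, which joins laminin to type IV collagen, differed by -0.05 with an SE of 0.09, with 0.07 on slide 2 alone, and its other probes gave -0.17 and 0.04. Nid2, its relative in vessel basement membranes, had a lowest, median and highest value of -1.46, -1.30 and -1.12 at 20 months, against -1.39, -1.10 and -0.65 at 6 months. It differed by -0.20 with an SE of 0.12 (limma, adjusted p = 0.712), with 3 adult mice above every old one and a negative value on all 3 slides.

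Across the 12 mice the alpha chains followed Itgb1 to unequal degrees. 25 relations across mice were computed in all, with permutation tests of 100000 draws and Benjamini-Hochberg adjustment over the 25, and r passed in 11 of them. Of the 11 alpha chains set against Itgb1, r passed for 7 and rho for 4. Itga9, a receptor chain for tenascin and Vcam1, had a Pearson r with Itgb1 of 0.88 (permutation p = 0.00023, adjusted p = 0.00115) and a Spearman rho of 0.80 (adjusted p = 0.0106). For Itgav r was 0.86 (permutation, adjusted p = 0.000667) and rho 0.89 (adjusted p = 0.00337), and for Itga1 r was 0.83 (permutation, adjusted p = 0.00171) and rho 0.81 (adjusted p = 0.0102). Itga8, Itga7 and Itga3 had r of 0.79, 0.73 and 0.71, which passed (permutation, adjusted p = 0.00896, 0.0230 and 0.0238), while their rho of 0.62, 0.55 and 0.66 did not (adjusted p = 0.0932, 0.163 and 0.0675). Itga5 did not follow Itgb1 over all mice, with r of 0.39 and rho of 0.27 (permutation, adjusted p = 0.293 and 0.534). With the means of age taken out its r was 0.61, and 0.54 with slide taken out too. Among the old mice alone it was 0.95, and among the adult mice alone 0.61. Itga4, Itga11 and Itga10 did not pass either, with r of -0.34, 0.16 and -0.02 (permutation, adjusted p = 0.374, 0.683 and 0.938).

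Itga6 ran the other way. Its r with Itgb1 was -0.77 (permutation p = 0.00387, adjusted p = 0.0121) and its rho -0.85 (adjusted p = 0.00562). Without the 2 mice farthest from the median of the alpha chain's value, r was -0.83 for Itga6, 0.75 for Itga9, 0.79 for Itgav and 0.81 for Itga1. With the means of age and slide taken out, r was -0.82, 0.92, 0.91 and 0.87 for the same 4 genes. Among the old mice alone it was -0.56, 0.86, 0.69 and 0.60, and among the adult mice alone -0.89, 0.91, 0.99 and 0.96. These 4 relations thus kept their sign within each age, and r was smaller in size in the old mice. That was not so for every chain, as Itga8 had r of 0.86 at both ages and Itga5 a higher r in the old mice. Each r within an age rests on 6 mice, and the SD of Itgb1 was 0.09 at 20 months and 0.29 at 6 months. Whether r differs between the ages was not tested. Among the 16840 other genes tested, 0.321% had an r with Itgb1 at least as high as that of Itga9, 0.600% as that of Itgav, 1.13% as that of Itga1 and 4.70% as that of Itga3, and 3.38% had one as low as that of Itga6. With Itgb4, the other partner of alpha 6, Itga6 had r of -0.05 (permutation, adjusted p = 0.906).

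Itgb1 also followed the list of 10 smooth muscle markers, which holds contractile genes such as Acta2 and Myh11. Here r was 0.90 (permutation, adjusted p = 0.00106), rho 0.73 (adjusted p = 0.0314), and r 0.72 without the 2 farthest mice and 0.95 within age and slide. The list was lowest in replicate 1 of the old mice, at -0.23, and in replicates 3 and 6 of the adult mice, at -0.35 and -0.41, and Itgb1 was lowest in the same 3 mice. The other 9 mice lay between 0.004 and 0.20 in that list, so the relation rests in part on those 3. Itga6 had r of -0.60 with the same list, which did not pass (permutation, adjusted p = 0.0739). Within age and slide it was -0.75, with -0.05 among the old and -0.80 among the adult mice. The part of the smooth muscle share of the sample in these relations was not tested.

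**Figure D3:**
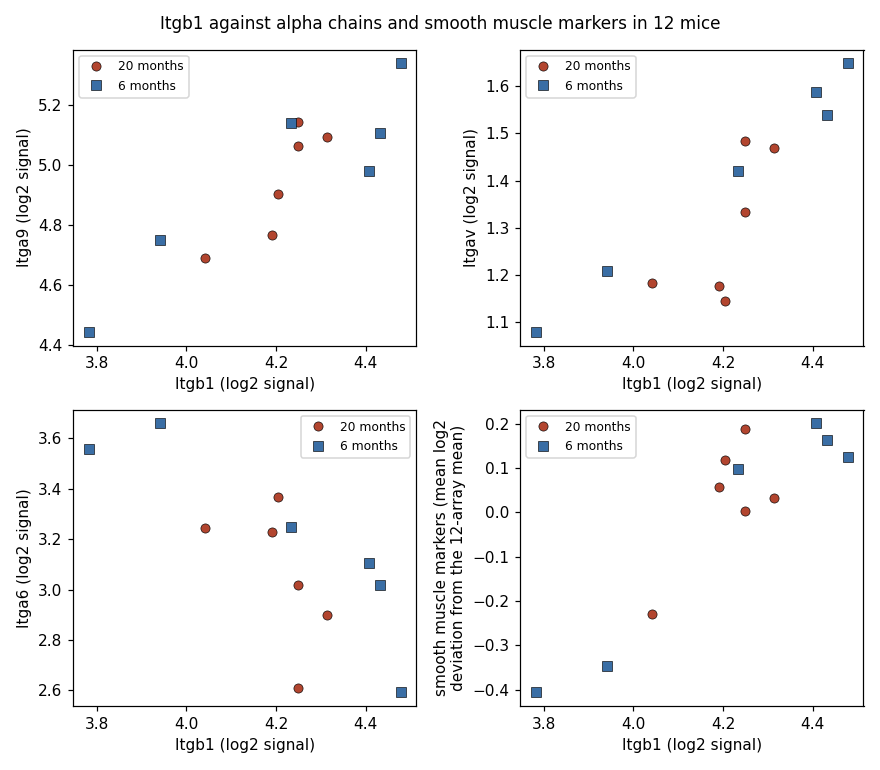
Each point is a mouse, with circles for 20 months and squares for 6 months, and Itgb1 log2 signal on every horizontal axis. The vertical axes show Itga9, Itgav and Itga6 (log2 signal) and the smooth muscle list (mean log2 deviation from the 12-array mean). Itga9, Itgav and the list are higher, and Itga6 lower, in mice with more Itgb1 signal.

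Itgb2 followed the leukocyte and macrophage list in the same way, with r of 0.91 (permutation, adjusted p = 0.000667) and rho of 0.86 (adjusted p = 0.00562), and r of 0.93 within age and slide. Its partner Itgal, the alpha L chain of lymphocytes, had r of 0.67 with Itgb2 (permutation, adjusted p = 0.0392), while rho of 0.44 did not pass (adjusted p = 0.250). Without the 2 farthest mice r was 0.20, so it rests in part on those. Within age and slide it was 0.83, with 0.85 among the old and 0.68 among the adult mice. Another partner of Itgb2, Itgam, is the alpha M chain of macrophages and neutrophils. As measured by its chosen probe it did not follow Itgb2, with r of 0.16 (permutation, adjusted p = 0.683) and rho of 0.22 (adjusted p = 0.609).

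Itgam was read by the probe with the highest mean signal, the first printed above, whose 5′ end is a CA run of 10 units. Its values ran from 6.57 to 7.18 at 20 months, against 6.31 to 6.99 at 6 months, and it differed by 0.15 with an SE of 0.13. The other Itgam probes gave -0.10 and -0.18, so the gene's direction depends on the probe. This comparison with probe sequence was chosen after the values were seen. A run of at least 8 CA or AC units was present in 35 of 55630 gene probes (0.0629%), of which 34 were above background on at least 6 arrays (97.1%), beside 49.6% of all gene probes. No other member probe holds such a run.

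Across the 12 mice this Itgam probe followed the median of the 34 other probes with a CA run. Here r was 0.95 and rho 0.95 (permutation p = 2e-05 and adjusted p = 0.0005 for both), and r was 0.98 within age and slide. With the other Itgam probes r was 0.17 and 0.09 (permutation, adjusted p = 0.683 and 0.852), and the probes without a run had r of 0.43 with each other (adjusted p = 0.252). The median of the other CA probes was 0.15 ± 0.21 at 20 months and -0.15 ± 0.26 at 6 months (SD, n = 6 each), a difference of 0.30 between the ages. The signal of this probe thus moved with probes outside Itgam that share the run, and the Itgam level is uncertain here.

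**Figure D4:**
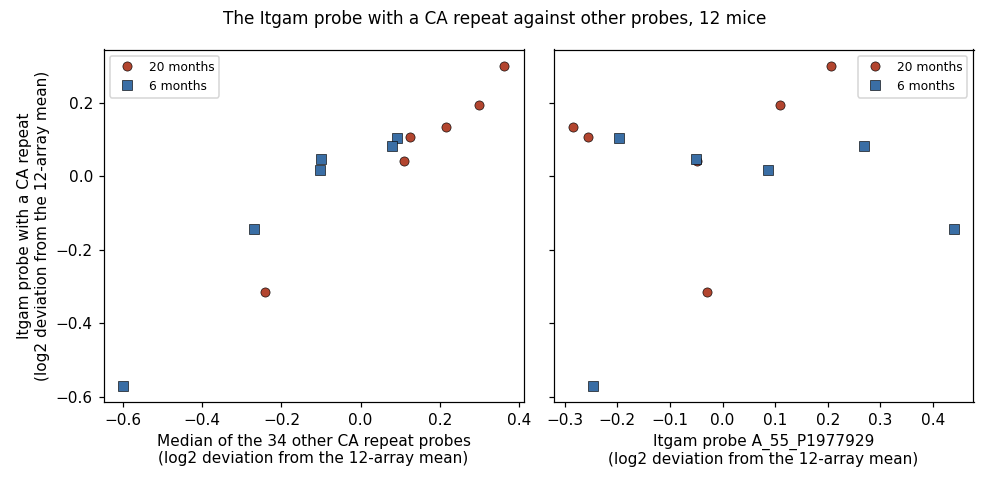
Deviation of the Itgam probe with a CA run from its 12-array mean (log2, vertical axis) in each mouse, with circles for 20 months and squares for 6 months. On the left it is set against the median deviation of the 34 other CA run probes, with r of 0.95, and on the right against another Itgam probe, with r of 0.17.

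8 members had more than 1 tested probe. The probes gave the same sign in 5 of them and opposite signs in Itgam, Itgb3 and Nid1. The closest were Lama2, at 0.190 and 0.192, and Itga10, a collagen receptor chain of cartilage, at 0.015 and 0.016, but the Itga10 probes share 54 bases and are not independent.

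**Figure D5:**
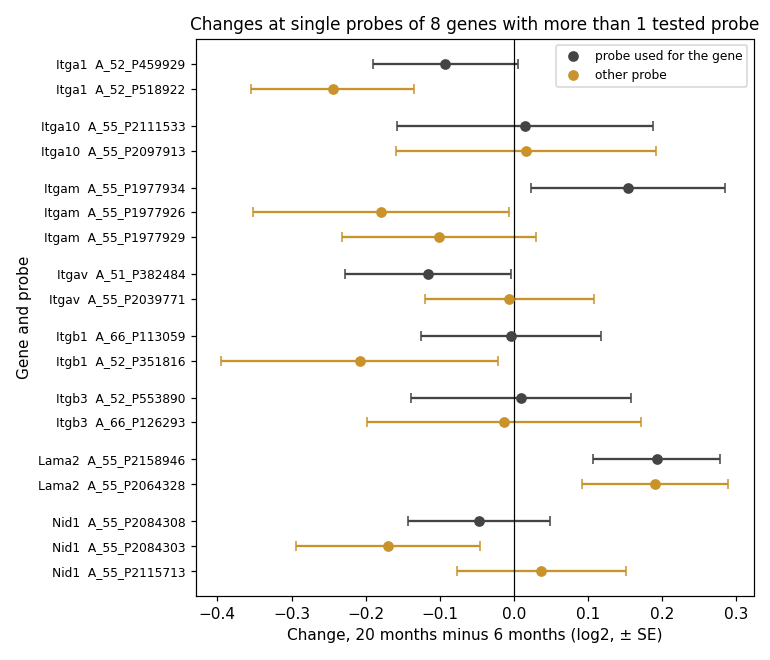
Difference between 20 and 6 months (log2, horizontal axis) at each tested probe of the 8 genes with more than 1, with bars of 1 SE. Dark points are the probes used for the gene and light points the others, which lie on the other side of 0 for Itgam, Itgb3 and, with 1 of 2, Nid1.

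3 lists of genes that work with the members were described in the same way. The list of adhesion partners held proteins inside the cell (talins, kindlins, vinculin and others) and also surface proteins such as Cd47 and Cd151. Of its 40 genes 36 were tested. Of these 0 passed the adjusted threshold and 1 (2.78%) had an unadjusted p under 0.05, beside 0.315% and 7.99% of all genes. Their median difference was 0.057, with 28 positive and 8 negative, beside -0.020 over all genes. The smallest p-values belonged to Tns2, a tensin that binds beta tails, at 0.24 with an SE of 0.11, Dab2, an adaptor of integrin uptake, at 0.31 with an SE of 0.15, and Parvb, a parvin of the complex with Ilk, at 0.42 with an SE of 0.22. Their adjusted p in limma was 0.619, 0.647 and 0.678.

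Of 30 other basement membrane genes 27 were tested and 0 passed. An unadjusted p under 0.05 was found for 3 (11.1%), beside 7.99% of all genes. The median difference was -0.028, beside -0.020 over all genes. Col4a4, a type IV collagen chain, had a lowest value of 0.89 and a highest of 1.24 at 20 months, against 0.67 and 0.90 at 6 months, so the ages overlapped by a narrow margin. Its difference was 0.33 with an SE of 0.08 (limma, adjusted p = 0.128). Ntn4, a netrin that binds laminin gamma chains, differed by 0.44 with an SE of 0.11, and Smoc2, a matrix protein of the Sparc family, by 0.47 with an SE of 0.12 (limma, adjusted p = 0.194 and 0.196). With weights for array quality Col4a4 and Smoc2 passed, at 0.35 and 0.53 (limma, adjusted p = 0.0450 and 0.0452).

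Of 23 integrin ligands other than laminins 18 were tested and 0 passed. An unadjusted p under 0.05 was found for 6 (33.3%), beside 7.99% of all genes. The median difference was 0.094, with 13 positive and 5 negative values. Over all genes it was -0.020, with 7389 positive and 9452 negative. Fn1, fibronectin, the ligand of the receptor that Itga5 forms, had values of 7.96, 7.95, 8.47, 8.20, 8.40 and 8.30 at 20 months, against 8.26, 7.78, 7.31, 7.60, 7.78 and 7.57 at 6 months. 5 of the 6 adult mice lay below every old mouse. The difference was 0.50 with an SE of 0.15 (limma, adjusted p = 0.292), and it was 0.41, 0.56 and 0.52 on the 3 slides. Tgfb1, whose latent form binds alpha V integrins, differed by 0.32 with an SE of 0.09, and Ccn2, a matricellular ligand, by 0.62 with an SE of 0.20 (limma, adjusted p = 0.237 and 0.345).

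Several features of the arrays bear on all values. Of the gene probes, 47.5% to 55.8% were above background per array, with 40 or 41 of the 50 member probes, and no member probe was saturated. All 20-month arrays sat in column 3 of their slides and the 6-month arrays in columns 1 and 4, so array column and age cannot be told apart. The 8 fat cell markers, among them Ucp1 and Adipoq, were above background on every array. Of these 7 had negative differences and 1 a positive one, with a median of -0.19 and 0 past the adjusted threshold. Their mean deviation ran from -0.32 to 0.45 at 20 months and from -0.21 to 0.47 at 6 months. The part of fat cells in the values of the members was not tested. Heart muscle markers were high in replicate 1 of the old and replicate 1 of the adult mice, at 2.83 and 1.87, and T and NK cell markers in replicate 4 of the adult mice, at 1.56. Without these 3 arrays 0 of 31 members passed, Itga5 differed by 0.79, Lamb3 by -1.17 and Fn1 by 0.66 (limma, adjusted p = 0.142, 0.119 and 0.132). Replicate 3 of the adult mice, where mesothelial markers were highest at 2.36, was kept in that setting.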

How the data were processed

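Arrays of design 028005 were read with Agilent Feature Extraction 10.7.1.1, per the file headers, and the deposited intensity is its processed Cy3 signal, background corrected per spot. The deposited value table, on a log2 scale, has its normalization not given in the sources used here; it correlated with the scanner values at 0.898 to 0.985 per array and is centred per probe, and it served as an alternative. Spots of 1 probe were averaged, and log2 signals were taken relative to each array's 75th percentile. Of 55681 gene probes 51 were left out for outlier flags; 27583 were above background on at least 6 of 12 arrays. Probes took gene names from RefSeq accessions (26407), symbols (4599) or the array (4759), and 19916 stayed unnamed. A gene was read by its probe with the highest mean signal, giving 16841 genes.

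limma 3.58.1 (lmFit and eBayes, R 4.3.3) compared 20 with 6 months with Benjamini-Hochberg adjustment over all genes, threshold 0.05; the procedure was tested on simulated data. Correlations used scipy 1.17.1. The number of arrays limits the precision. The text names every member past the threshold, the 20 with the smallest p, fixed receptor and laminin chains, and 3 genes per partner list; 1 member that the rule names is counted but not reported here. Itga7, Itga9, Itgal and Itga10 appear as partner chains or by their probes and were added after their values were seen. Members, lists and tests were chosen with earlier results of these data known. Alternatives are given in the closing section.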

Additional observations from a re-analysis of the deposited data

Results flagged for a closer look

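In 66 groups of 6 mice (the named genes, each age apart), 4 had a mouse that lay apart from the others by Dixon's criterion, a gap to its neighbour above the critical share of the group's range. Chance alone flags about 1 group in 20. Lamb3 was at -3.54 in replicate 4 of the 6-month mice, below the other 5. Itgam, by the probe with the CA run, was at 6.31 in replicate 6 of the 6-month mice. Itga8 was at 6.916 in replicate 1 of the 20-month mice, the old mouse that was lowest in smooth muscle markers and high in heart muscle markers. Smoc2 was at 5.099 in the same mouse.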

How the results depend on the processing

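Across 29 alternatives 24 member genes gave 695 values, of which 32 had the other sign and 1 passed the threshold (Itga5 with array weights, 0.78). 13 members kept their sign throughout. The number of genes passing was 53 as reported, 33 with median scaling, 23 with no filter on dim probes, 122 with array weights, 1, 1 and 0 on slides 1, 2 and 3 alone, 30 without the 3 arrays with strong heart muscle or T and NK cell signals, and 21 to 59 when each mouse was left out (21 without replicate 2 of the 20-month mice). With array weights 1 integrin gene and 2 basement membrane partners passed (Col4a4 0.35, Smoc2 0.53). The laminin and nidogen median was -0.105 on slide 1 alone.

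Itgb1 was positive with normexp (0.000843), quantile normalization (0.0349), median scaling (0.0290), the value table (0.0350), slide 3 alone (0.103) and without the 3 arrays (0.083), where Itga8 was 0.016. On slide 1 alone Lama4 was -0.148, Lama5 -0.271 and Lamc1 -0.105. On slide 2 Itgb3 was -0.019 and Nid1 0.073. On slide 3 Itgb7 was -0.046, Itga4 0.012, Itga8 0.038, Lama3 -0.036 and Itgb3 -0.083. With the mean over probes Itgam was -0.042 and Itgb3 -0.00228. With single Itgam probes, chosen after seeing the data, it was -0.101 and -0.180. Leaving out each mouse gave -0.090 to 0.049 for Itgb1, -0.095 to 0.110 for Itgb3 and -0.020 to 0.039 for Lamc1. Lamb3 moved to -0.23 with normexp and had no value when all 12 arrays had to be above background. The cause was not tested.

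Mice with the same replicate number did not deviate together (correlations of -0.36 to 0.32, with 1 mouse of 6 closest to its own number), so the numbers do not pair the mice. With the replicate number as a block 6 genes and 0 members passed. The 6 mice per age and the dim signal of Lamb3, Itgal and Itgax limit what these data can show.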
